A study of Quercus robur with 6 samples.

Results

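The auxin-linked microRNAs (miRNAs) miR390, miR393 and miR164, listed by the authors as qrb-miR390, qrb-miR393 and qrb-miR164, were followed through a degradome experiment on roots of pedunculate oak (Quercus robur). All entries of the 6 deposited target tables that carried one of these names were taken, by name alone. They came to 16 of 231 calls, 7 of 89 sites and 3 of 27 miRNA names. A call is a miRNA and a cut position listed in a library, and a site is a transcript with a cut position.

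The degradome is the set of uncapped RNA fragments in a tissue, and the assay reads their 5′ ends, so that a transcript cut at a fixed base under the guidance of a miRNA shows reads that begin there. The seedlings were wild-type and had 8 weeks of acclimatisation with optimal watering. Then 1 group stayed watered (control, 3 libraries), and in the other soil moisture was lowered to 25% of the control level for 4 weeks (drought, 3 libraries). Each biological replicate was made from 10 to 15 root tips with their meristematic zone, and RNA of taproots and lateral roots was pooled for each library, so a call cannot be tied to either root type. The titles do not say whether the plants were raised in containers or sown in rhizotrons. The tables list calls alone, those within a p-value limit of 0.05 set by the authors, and hold no read counts, so the depth behind a call cannot be read from them. For sites not listed in a library, the categories that this limit would have let through are given with each site.

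Auxin directs the initiation and growth of lateral roots, and the members act at different points of its signalling. In Arabidopsis, miR393 cuts the transcripts of the TIR1/AFB F-box proteins, which are the auxin receptors. There miR390 acts on the non-coding TAS3 RNA, from which small RNAs against auxin response factor (ARF) transcripts are made. TAS3 of Arabidopsis carries a pair of miR390 sites, of which the upstream one has a mismatch at its centre and is not cut. miR164 limits NAC transcription factors, among them NAC1, which acts downstream of auxin in lateral root formation. The oak transcripts below are given by ID only, since 0 of the 85 transcript IDs in the tables matched the RefSeq gene table and no other source used here annotates them.

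The mature sequences are shown because the sites were searched with them. They are given as deposited, 5′ to 3′, with the seed (bases 2 to 8) in capitals. miR393 was listed with a sequence of 22 nt and another of 21 nt.
miR393, 22 nt: uCCAAAGGgaucgcauugauuu
miR393, 21 nt: aUCAUGCUaucccuuuggacu
miR390: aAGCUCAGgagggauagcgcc
miR164: cAUGUGCUcuagcucuccagc
None of these seeds was found under another miRNA name in the tables. The miR393 sequences were complementary to each other at 15 bases at the offset with the longest unbroken run, which was 11 bases. The tables do not say from which arm of a precursor any sequence came. Whether the miR164 and the 21 nt miR393 sequences are the arms that act on NAC and receptor transcripts in Arabidopsis was not determined.

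The target sites are shown because the members differ in how they pair with the miRNA, with an unpaired base 10 or 11 of the miRNA, beside the cut, in 2 of the 7. They were taken from the deposited alignments to the PM1N transcripts and run 5′ to 3′, with bases that paired with the miRNA in capitals and unpaired bases in lower case.
miR393, Qrob_T0626770.2: gagaCAAUGCGAUCCCUUUGGA
miR393, Qrob_T0036220.2: gaggCAAUGCGAUCCCUUUGGA
miR393, Qrob_T0380050.2: GGUCCAAGGGaaccGUGGCAUGAU
miR390, Qrob_T0233240.2: GGUGCUAUCCCaUCUGAGCUU
miR390, Qrob_T0088850.2: GGUacuGCUGUUCCUCCUGAGCUU
miR390, Qrob_T0501280.2: GGCGCUAUCUCUUCGAGaac
miR164, Qrob_T0323590.2: uUUGGGGAGUUGGAGgACGUG
The first pair of miR393 sites shared 21 of 22 bases and differed by A4G, counted from the 5′ end of the site on Qrob_T0626770.2. None of the 7 target sequences was listed on a second transcript.

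Each call carries a category from 0 to 4, which ranks the reads at the cut position against the rest of the transcript. In category 0 the position is the only maximum of the transcript, in category 1 it ties for the maximum, in category 2 it lies under the maximum but above the usual depth, in category 3 it does not exceed that depth, and in category 4 it rests on 1 read. The Allen score is a mismatch penalty (0 for a perfect match). The MFE ratio is the free energy of the duplex over that of a perfect one (1 for a perfect match). The deposited p-value depends on how large a share of all transcript positions has that category, called the category density, and on the rank of the alignment among those of its miRNA, with 1 for the best. Both were recovered from the p-values themselves. The recovered rank was not a fixed property of a site, since it differed between libraries in 8 of the 16 sites called in every library.

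**Figure D1:**
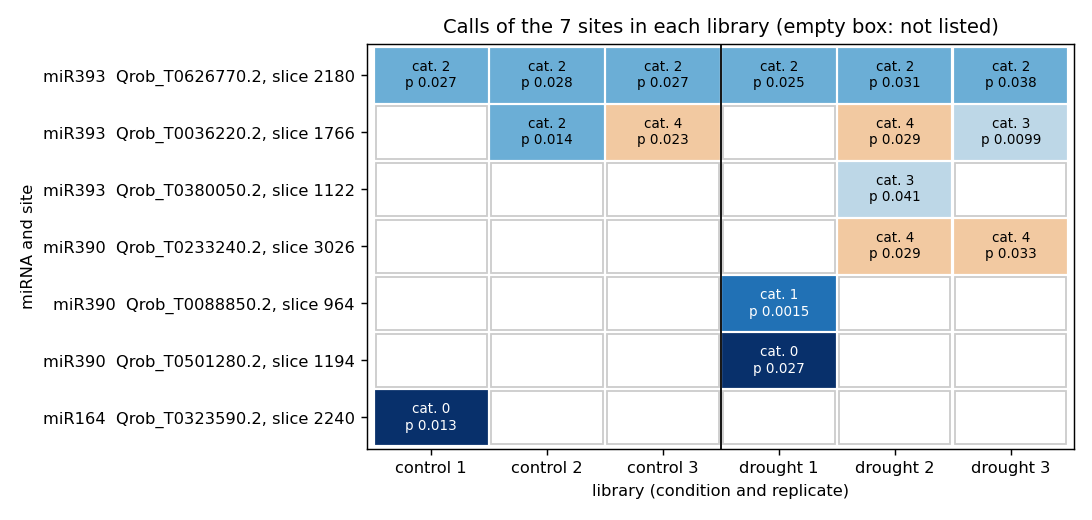
Calls of the 7 sites (rows) in the 3 control and 3 drought libraries (columns), with colour and text giving the category and the deposited p-value. The first miR393 site fills all 6 columns, and the 3 miR390 sites are filled under drought alone.

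miR393 was the only member called in every library, with 11 of the 16 calls. Its site on Qrob_T0626770.2 (bases 2168 to 2189, cut at 2180) was listed in all 6 libraries and always in category 2. The deposited p-value was 0.0271, 0.0285 and 0.0267 in control libraries 1, 2 and 3. Under drought it was 0.0251, 0.0309 and 0.0381 in the same order. The drought range enclosed the control range. In log10 the drought mean was 0.0525 above the control mean (1.13-fold in p), with an SD of 0.0143 in the control and 0.0904 under drought (n = 3 each). The two-sided exact permutation test gave p = 0.4, and 0.8 after Benjamini-Hochberg adjustment over the 16 sites called in every library. In 1 of those 16 sites (6.25%) the p ranges of the conditions did not overlap.

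The alignment behind these p-values was the same in every library. The rank was 2 in every library, and the category 2 density, recovered from the p-values of all names, was 1.36%, 1.43% and 1.35% in the controls and 1.26%, 1.56% and 1.92% under drought. With category and rank constant, the p-value of this site followed from that density alone. The comparison of its p-values was therefore one of library-wide densities and does not measure cutting at this site. The Allen score was 4, the median over the 89 sites, and the MFE ratio of 0.915 was higher than that of 67 sites and lower than that of 21. Bases 19 to 22 of the miRNA, at its 3′ end, were unpaired, while the seed and the bases around the cut were all paired.

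The site on Qrob_T0036220.2 (bases 1754 to 1775, cut at 1766) had the same pairing and was listed in 4 libraries, 2 of each condition. It was in category 2 with a deposited p-value of 0.0143 in control library 2 and in category 4 with 0.0229 in control library 3. Under drought it was in category 4 with a value of 0.0287 in library 2 and in category 3 with 0.00992 in library 3. Its category thus changed between libraries of the same condition, in contrast to that of Qrob_T0626770.2. The Allen score was 4 and the MFE ratio 0.920, with 71 sites lower and 17 higher.

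Qrob_T0036220.2 had rank 1 wherever it was called. At rank 1, each category with a recovered density would have passed the limit in control library 1 and in drought library 1, where the site was not listed. The largest such p-value was 0.0242 in control library 1 and 0.0126 in drought library 1, for which no category 4 density could be recovered. With the densities taken as first found, these values were 0.0275 and 0.0339. The rank in those libraries is not known, and at rank 3 a category 4 call would have failed in control library 1 (0.0710).

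The third miR393 site, on Qrob_T0380050.2 (bases 1108 to 1131, cut at 1122), was called with the 21 nt sequence. It was listed in drought library 2 alone, in category 3 with a deposited p-value of 0.0414. Base 11 of the miRNA lay opposite 4 unpaired target bases beside the cut. The Allen score was 11, which only 2 of the 89 sites exceeded, and the MFE ratio was 0.750. Its rank was 6, or 3 with the category 3 density of that library as first found. At rank 6, only categories 0, 1 and 3 would have passed the limit in each control library. The same held in drought library 1, among categories with a recovered density. In drought library 3 only categories 0 and 1 would have passed. With the densities as first found, category 3 would have failed in control library 1 and drought library 1, at rank 6 and at rank 3. At rank 3, category 2 would also have passed in each control library and in drought library 1, and category 3 in drought library 3.

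miR393 had 1, 2 and 2 called sites in the control libraries and 1, 3 and 2 under drought. The means were 1.67 ± 0.577 and 2.00 ± 1.00 (SD, n = 3), a difference of 0.333 sites per library. The groups overlapped, and the exact permutation test gave p = 1, also after adjustment over the 27 names. The difference came from the drought call on Qrob_T0380050.2. It was 0 with the 22 nt sequence alone, and 0.167 sites fewer under drought without drought library 2.

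**Figure D2:**
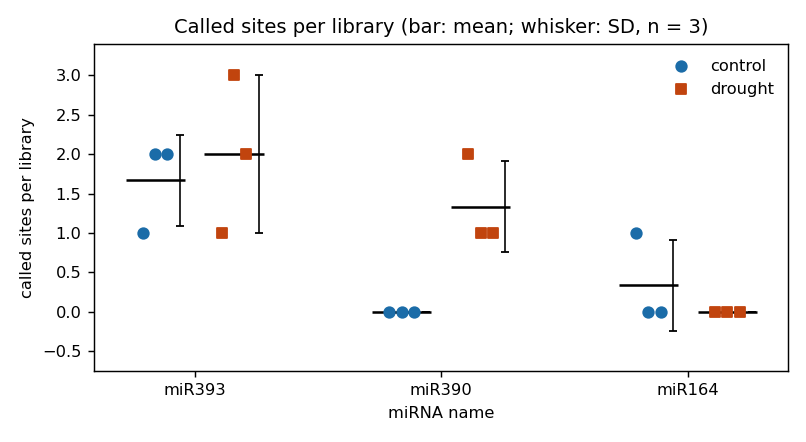
Number of called sites per library (vertical axis) for each miRNA name, with points for single libraries, bars for means and whiskers for SD (n = 3). The miR390 points are at 0 in the control and at 1 to 2 under drought, while those of miR393 and miR164 overlap between the groups.

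miR390 was not called in any control library and was called in every drought library. It had 0, 0 and 0 sites in the control libraries and 2, 1 and 1 under drought, with means of 0 and 1.33 ± 0.577 (SD, n = 3). The groups did not overlap, as was the case with drought above control for 2 of 27 names (7.41%). The other was miR167. The two-sided exact permutation test gave p = 0.1 for miR390, the smallest that 3 against 3 libraries allow, and 0.9 after adjustment over the 27 names. No name reached an unadjusted p under 0.05 by this test (0 of 27), and no name could have with 3 against 3 libraries. The test therefore could not decide on the higher number of miR390 sites under drought. In drought libraries 2 and 3 the only miR390 site listed was Qrob_T0233240.2, and in drought library 1 other sites were listed. The separation of the groups in libraries 2 and 3 thus rested on that site, which was lost with categories 0 to 2.

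The site on Qrob_T0233240.2 (bases 3015 to 3035, cut at 3026) was the only miR390 site listed more than once. It was in category 4, thus with 1 read at the cut, and had deposited p-values of 0.0287 in drought library 2 and 0.0327 in drought library 3. The rank was 1 and the Allen score 3.5, the lowest of the 7 sites. The MFE ratio was 0.837. Fisher's exact test of listed against not listed gave p = 0.4 (adjusted p = 1 over 89 sites). With 3 against 3 libraries this test cannot give p under 0.1. That 0 of 89 sites had an unadjusted p under 0.05 was therefore fixed in advance.

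In this site base 10 of miR390, which faces the cut position, was unpaired, and all other bases were paired. Base 10 was unpaired in 2 of the 89 sites (2.25%), and base 10 or 11 in 5 of 89 (5.62%). At rank 1, all 5 categories would have passed the limit in each control library, with a largest p-value of 0.0242. In drought library 1, the 4 categories with a recovered density would have passed. The rank in libraries where the site was not listed is not known. At rank 3, category 4 would have failed in control libraries 1, 2 and 3 (0.0710, 0.0656 and 0.0671). The category 4 densities behind rank 1 came from 4 calls in drought library 2 and 3 in drought library 3.

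The site on Qrob_T0088850.2 (bases 950 to 973, cut at 964) was listed in drought library 1 alone. It was in category 1, tied for the maximum of its transcript, with a deposited p-value of 0.00154, the lowest of the 16 calls. The rank was 3, the Allen score 4.5 and the MFE ratio 0.810. All bases of miR390 were paired, and 3 bases of the target bulged out on the 5′ side. At rank 3, categories 0 to 3 would have passed the limit in each control library and in drought library 2, and category 4 would have failed. In drought library 3 category 2 would also have failed (0.0566). With the density as first found, category 3 would have failed in control library 1 (0.0802).

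The same transcript carried a site of miR396, a family known in Arabidopsis for acting on growth-regulating factor transcripts, with its cut at base 1215, 251 bases downstream. This site was listed in all 6 libraries. It was in category 2 in the controls, with deposited p-values of 0.0403, 0.0424 and 0.0398. Under drought it was in category 1, with values of 0.00205, 0.000957 and 0.00140. The p ranges did not overlap, and the exact permutation test gave p = 0.1 (0.8 after adjustment over 16 sites). Since the p-value depends on the category density, this comparison is not separate from the change of category. In drought library 1 the miR390 and miR396 cuts were both in category 1. No other transcript with a member site had a call of another miRNA name.

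The third miR390 site, on Qrob_T0501280.2 (bases 1183 to 1202, cut at 1194), was listed in drought library 1 alone, in category 0 with a deposited p-value of 0.0274. Its alignment was weak. Bases 1 to 3 and 7 of the miRNA were unpaired, 3 of them in the seed, the Allen score was 9, and the MFE ratio of 0.659 was above that of 2 sites only. The rank was 91, and at that rank only categories 0 and 1, among those with a recovered density, could have passed the limit in any library.

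**Figure D3:**
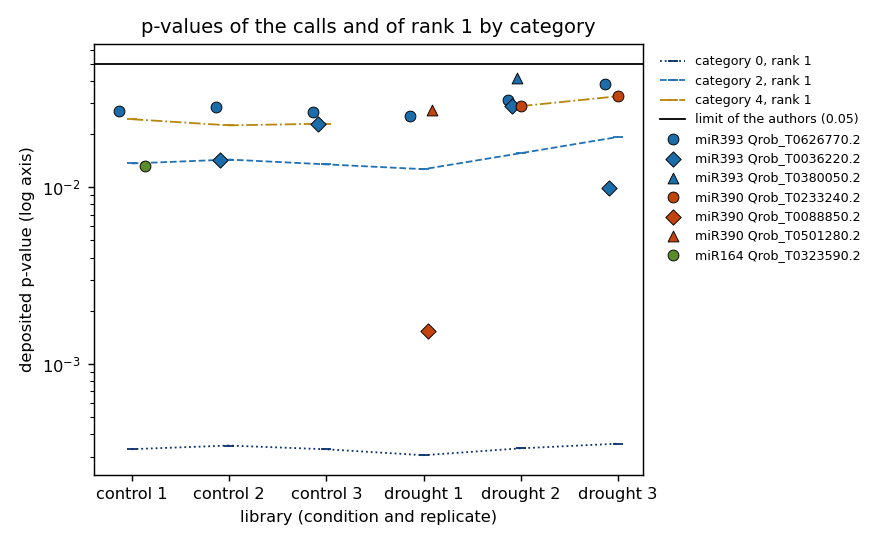
Deposited p-value of each call (log axis) by library, shifted sideways by site, with lines for the p-value that rank 1 gives in categories 0, 2 and 4 and for the limit of 0.05. The circles of Qrob_T0626770.2 run parallel to the category 2 line, and the calls in category 4 lie on the category 4 line.

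miR164 had 1 call. Its site on Qrob_T0323590.2 (bases 2229 to 2249, cut at 2240) was listed in control library 1 alone, in category 0 with a deposited p-value of 0.0131. Bases 6 and 21 of the miRNA were unpaired, the Allen score was 7, and the MFE ratio of 0.709 exceeded that of 11 sites. The rank was 40, and again only categories 0 and 1 could have passed at it.

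The number of miR164 sites was 1, 0 and 0 in the control and 0, 0 and 0 under drought, a difference of -0.333 sites per library (exact permutation p = 1, adjusted p = 1). The call in control library 1 decided it, and without that library no miR164 site was left. The category 0 calls of miR164 and miR390 had ranks of 40 and 91. Over all names, the median rank of the 108 category 0 calls was 4, with 80 calls at rank 10 or lower and 13 at rank 40 or more.

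**Figure D4:**
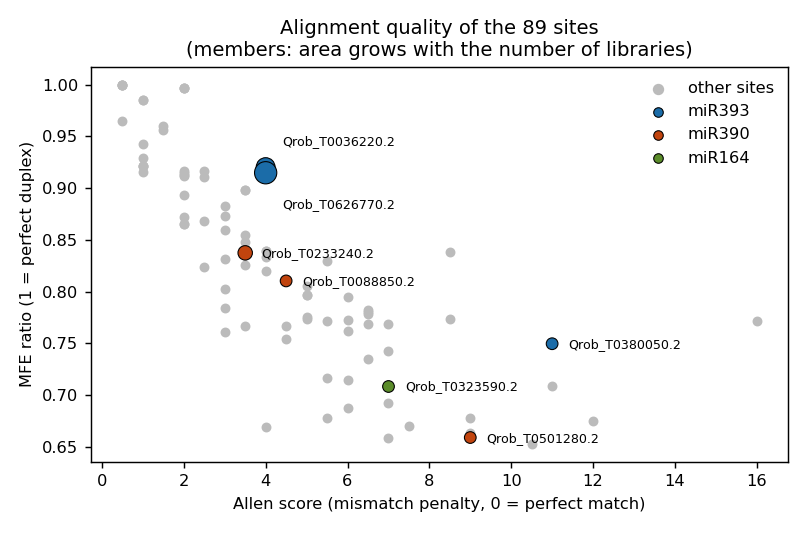
MFE ratio (1 for a perfect duplex) against Allen score (0 for a perfect match) for the 89 sites, with members in colour and an area that grows with the number of libraries. The pair of recurrent miR393 sites lies at a score of 4 with ratios of 0.915 and 0.920, and the member sites with scores of 7, 9 and 11 were each called in 1 library.

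Recurrence differed between the members. The sites of miR393 were listed in 6, 4 and 1 libraries (3.67 calls per site), those of miR390 in 2, 1 and 1 (1.33 calls per site), and that of miR164 in 1. In all, 3 of the 7 sites were listed in more than 1 library, beside 52.8% of all sites, 4 of the 7 in 1 library, beside 47.2%, and 1 of the 7 in all 6, beside 18.0%. Listed under drought alone were 4 of the 7 sites, beside 25.8% of all sites, and under control alone 1 of the 7, beside 33.7%. The 3 sites with more than 1 call had Allen scores of 3.5, 4 and 4, and the 4 sites with a single call had 4.5, 7, 9 and 11. Over all names, 33 of 51 sites with a score of at most 4 and 14 of 38 with a higher score were listed in more than 1 library. The sites of a name share the same libraries and are not replicates, so no test was made of these counts.

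Of the ARF-directed families of the same hormone pathway, miR160 had 4 sites, and all 4 were listed in all 6 libraries. miR167 had 4 sites, of which 2 were listed in all 6 libraries, 1 in 3 and 1 in 2 (4.25 calls per site). miR167 had 2, 2 and 2 sites in the control and 3, 4 and 4 under drought (exact permutation p = 0.1, adjusted p = 0.9).

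**Figure D5:**
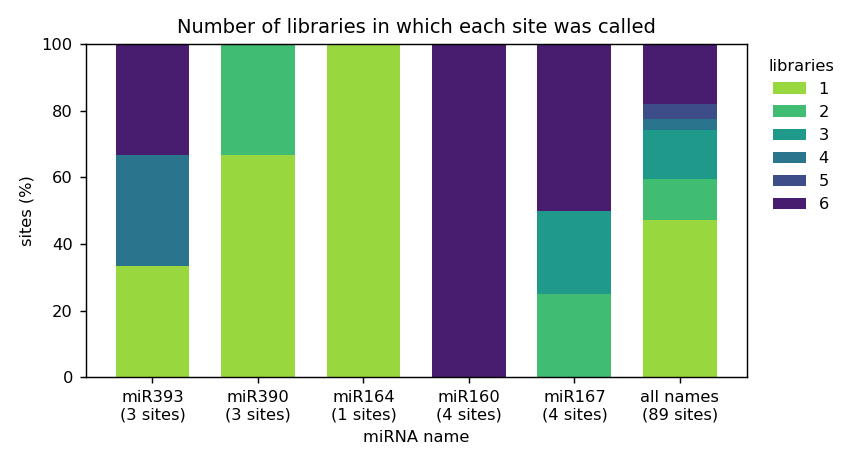
Share of sites (vertical axis, percent) listed in 1 to 6 libraries, for the members, miR160, miR167 and all 89 sites. The 4 miR160 sites were all in 6 libraries, 1 of the 3 miR393 sites was, and no miR390 or miR164 site was.

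Members made up 5.41%, 4.44% and 5.41% of the calls in the control libraries and 9.09%, 9.76% and 7.89% under drought. Category 0 held 2 of the 16 member calls (12.5%), beside 46.8% of all calls. Category 2 held 7 of the 16 (43.8%), beside 22.9%, and 6 of these 7 came from Qrob_T0626770.2. Category 4 held 4 of the 16 (25%), beside 9.52%, and no test was made of these shares. All 4 category 4 calls came from the sites at rank 1, Qrob_T0036220.2 and Qrob_T0233240.2. The limit itself confines category 4 to low ranks. At rank 3 such a call would have failed in every library with a recovered category 4 density.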

How the data were processed

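Roots of 3 control and 3 drought replicates, labelled as biological, were profiled by single-end reads of 50 nt. The labels name cutadapt, FastQC, HISAT2 and Bowtie in the submitters' processing notes, without saying which was used for these reads. Trimming and alignment settings are not given in the sources used here. CleaveLand4 4.5 was run by the authors separately for every library, per the file headers, against the longest PM1N transcripts, with a p-value limit of 0.05 and categories 0 to 4. The deposited p-value carries no correction for multiple miRNAs. The deposited MFE ratio, the deposited Allen score and the category were used as given.

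The p-value equals 1 minus (1 minus density) to the power of the rank. For each library and category the largest common step of the log-transformed p-values was found (tolerance 0.001). Steps from under 5 calls that exceeded 1.5 times the usual step were divided by the whole number that matched shared alignments, a rule chosen after seeing the data. This touched category 3 in control library 1 and drought libraries 1 and 2, and each divisor rested on 1 matching alignment. In drought library 2 that was 1 of 2 shared alignments. The usual category 3 step came from control library 2 alone.

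Sites per library and log10 p-values were compared by two-sided exact permutation tests over 20 assignments (smallest p = 0.1), and presence by Fisher's exact test, with Benjamini-Hochberg adjustment over all names, sites or recurrent sites. The p-values measure the spread between these libraries. Every site of the 3 names was described, miR160 and miR167 were counted beside them, and other calls on their transcripts were named. The members and lists were chosen with earlier results of these data known. Tried as alternatives were categories 0 to 2, a limit of 0.01 on the p-value, an Allen score of at most 4, the most called mature sequence, a common density, each library left out, and pairing by replicate number. Tests used scipy 1.17.1, tables pandas 2.3.3 with numpy 2.4.6, and plots matplotlib 3.10.9, under Python 3.11.15. The search for the common step and the permutation test were tried on simulated data, in which every set of p-values included the best rank. The division of steps that came from few calls was not simulated. No 2 libraries had an identical p-value for a shared site.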

Additional observations from a re-analysis of the deposited data

How the results depend on the processing

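The tables hold no read counts, and 3 against 3 libraries cannot reach p under 0.1. No control library had a miR390 call, and the alternative runs added no calls. The miR390 difference of 1.33 sites per library could therefore not fall below 0 in any of them. It was 0.333 with the p-value limit of 0.01 (exact p = 1), 0.667 with categories 0 to 2 (exact p = 1) or Allen scores up to 4 (exact p = 0.4), and 1 to 1.5 with 1 library left out. The miR393 difference was -0.333 with categories 0 to 2, and 0 for Allen scores up to 4, for the most called mature sequence and for one common category density, whether or not the steps were divided. With 1 library left out it ran from -0.167 (without drought replicate 2) to 0.833 (without drought replicate 1). The miR164 difference was 0 with the p-value limit of 0.01 and for Allen scores up to 4, and -0.5 to 0 with 1 library left out. The sites listed in more than 1 library fell from 3 to 0 with the p-value limit of 0.01, to 1 with categories 0 to 2, and to 2 without drought replicate 2 or 3. The log10 p difference of Qrob_T0626770.2, which follows from the category 2 densities alone, ran from 0.00728 (without drought replicate 3) to 0.0977 (without drought replicate 1). In a check of pairing, same-numbered libraries had correlations of -0.106, -0.0456 and -0.141 over 89 sites. Differently numbered ones had -0.0284 to 0.142. These values gave no sign of pairing by number, but they cannot exclude it. With the replicate block the miR390 difference had an exact sign-flip p of 0.25, the smallest possible, and no call changed.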
